A study of Mus musculus with 74 samples.

Results

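The H11-Cas9 mice of this study fell into 2 cohorts, and the effects of the same guides were measured in each, so that each effect could be set against its own repeat. The cohorts were told apart by the cells that the deposited table assigned to the spike-in barcodes of each mouse, which in this method come from a known amount of barcoded cells added to the lung sample. In 25 mice these entries summed to between 100000 and 100515 cells, and in 20 mice to between 300000 and 300350 cells. They are called the cohort near 100000 and the cohort near 300000. Together they are 45 of the 74 mice of the series. They held 58543 and 59305 tumours once spike-in entries were set aside, along with tumours whose construct held 1 guide in both of its places.

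Both cohorts carried the background that the labels call KT, an oncogenic allele and a Tomato reporter that Cre recombinase switches on, together with Cas9 at the H11 locus (genotype label KT_H11_Cas9). Lung tumours were started with a pool of lentiviruses that each carried Cre, a barcode and a pair of guides, and lungs were taken after about 3 months. The controls were KT mice given the same kind of pool, 5 with a spike-in total near 100000 and 4 near 300000, which have no Cas9. All mice of the cohort near 100000 had names beginning with LA (numbers 1227 to 1339). The cohort near 300000 held 14 mice named LA (865 to 991) and 6 named CM (3531 to 3536). The KT mice near 100000 were all named SL (SL1124 to SL1135), and those near 300000 all LA (LA859 to LA969). Near 100000, the names of KT and H11-Cas9 mice thus differed along with Cas9. The cohort, the names and anything else that went with them cannot be told apart, and viral dose, sex and age were not given in the sources used here.

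In this method every tumour grows from 1 cell that took up 1 virus, so its barcode gives its founder and its guides give the genes that Cas9 could cut. The number of tumours with a guide reflects how often a cell with it started a tumour, and the cells of each tumour reflect how far it grew. The pool targeted 17 genes, 16 of which are named here. Nf1 and Rasa1 are brakes on RAS signalling. p53 (Trp53) and Rb1 halt the cell cycle, Lkb1 (Stk11) is a kinase that restrains growth, and Keap1 marks the stress factor NRF2 for destruction. Apc and Rnf43 hold back Wnt signalling. Setd2, Kmt2a and Kmt2b are histone methyltransferases, Kat7 is a histone acetyltransferase and Meaf6 a subunit of its complexes, Ccnl1 and Ccnl2 are cyclins linked to splicing, and Pcna is the sliding clamp that cells need to copy DNA. The 5 inert guides, named safe, NT and EGFP, are controls meant to disrupt no gene, and tumours with 2 inert guides (inert/inert) were the reference in every mouse.

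Tumours per mouse ranged from 994 to 3715 near 100000 and from 1783 to 5263 near 300000. The mean log2 number was 11.14 ± 0.41 (SD, n = 25) against 11.48 ± 0.42 (SD, n = 20), a difference of 0.33 (95% interval 0.09 to 0.58) with an adjusted permutation p of 0.0469 over 5 measures of whole mice. The size of that difference was the same without mice 24 and 38, which stood apart in tumour size or in inert/inert number (0.33), but the adjusted permutation p was then 0.0585. The other 4 did not pass, among them the size of inert/inert tumours (mean log2 cells 7.47 ± 0.37 against 7.66 ± 0.47, SD). Reads per mouse spanned 118126 to 5764658 and 160251 to 6244121, and 1 read stood for a median of 8.49 and 6.74 cells. Tumours of at least 1000 cells made up a mean of 10.1% and 10.04% of those in a mouse. The reference rested on few tumours, a median of 23 (5 to 37) and 24 (14 to 51) inert/inert tumours per mouse. Within a mouse they averaged 0.37 log2 units less than all its tumours near 100000 and 0.22 less near 300000. Because every size effect of a mouse is taken against them, an error in them moves all effects of that mouse together. H11-Cas9 mice 24 and 38 belonged to the cohort near 100000 and stood apart from the rest of it. In mouse 24, 35.6% of tumours reached 1000 cells, against 4.84% to 15.4% in the cohort's other 23 mice, and mouse 38 had 5 inert/inert tumours against 11 to 37.

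Tumours with guides for Nf1, p53, Rasa1, Setd2 or the gene not named were larger than inert/inert tumours in both cohorts. All 5 genes called near 300000 were among the 12 called near 100000. The effect of a gene was its mean log2 cells beside an inert guide minus that of inert/inert tumours, taken in each mouse with at least 5 of each, and called at a sign-flip p under 0.05 after Benjamini-Hochberg adjustment over the genes of the cohort. Near 100000, 12 of 16 tested genes rose (75%), and near 300000, 5 of 17 (29.4%). None fell in either cohort. Size was tested against inert/inert tumours of the same mouse and not against KT mice. In KT mice, which have no Cas9, Nf1 stood at 0.03 near 100000 and -0.11 near 300000, and p53 at 0.02 and 0.01. Rasa1 stood there at 0.08 and -0.0047, and Setd2 at 0.10 and 0.04. Under other settings, the call near 300000 was lost for Rasa1 in 5 of 13, p53 and Setd2 in 3 of 13 each, and Nf1 in 2 of 13. Near 100000 it was lost for Rasa1 and p53 in 2 of 13 each and for Nf1 in 1 of 13. Setd2 near 100000 lost its call in 2 of 13 and turned below 0 in 2 more. These were medians (-0.011) and the mean of a mouse's single-gene effects as reference (-0.067). Floors on cells also remove inert/inert tumours and can leave fewer mice to test.

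Nf1 had the largest single effect near 100000, 0.51 ± 0.42 (SD, n = 25), which is 1.43-fold, and 0.32 ± 0.33 (SD, n = 20) near 300000, which is 1.25-fold. Single mice spanned -0.10 to 1.41 with a median of 0.49 near 100000, and -0.43 to 0.96 with a median of 0.32 near 300000. The effect was above 0 in 23 of 25 and in 17 of 20 mice, so the cohorts overlapped almost throughout. p53 tumours were larger by 0.37 ± 0.32 (above 0 in 24 of 25 mice) and by 0.20 ± 0.27 (14 of 20). Rasa1 tumours were larger by 0.31 ± 0.27 (23 of 25) and by 0.19 ± 0.29 (14 of 20). Setd2, which places the methyl marks on histone H3 along transcribed genes, gave nearly the same mean in both cohorts, 0.22 ± 0.42 and 0.21 ± 0.28 (SD). The 95% interval of its difference ran from -0.21 to 0.20. Relative to the mean of a mouse's single-gene effects it was at -0.07 and 0.10, called in neither. The difference was then 0.17 (95% interval 0.04 to 0.30, adjusted permutation p = 0.0966). That reference takes the same amount from all genes of a mouse, so a gene of about average effect lies near 0 by construction.

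**Figure D1:**
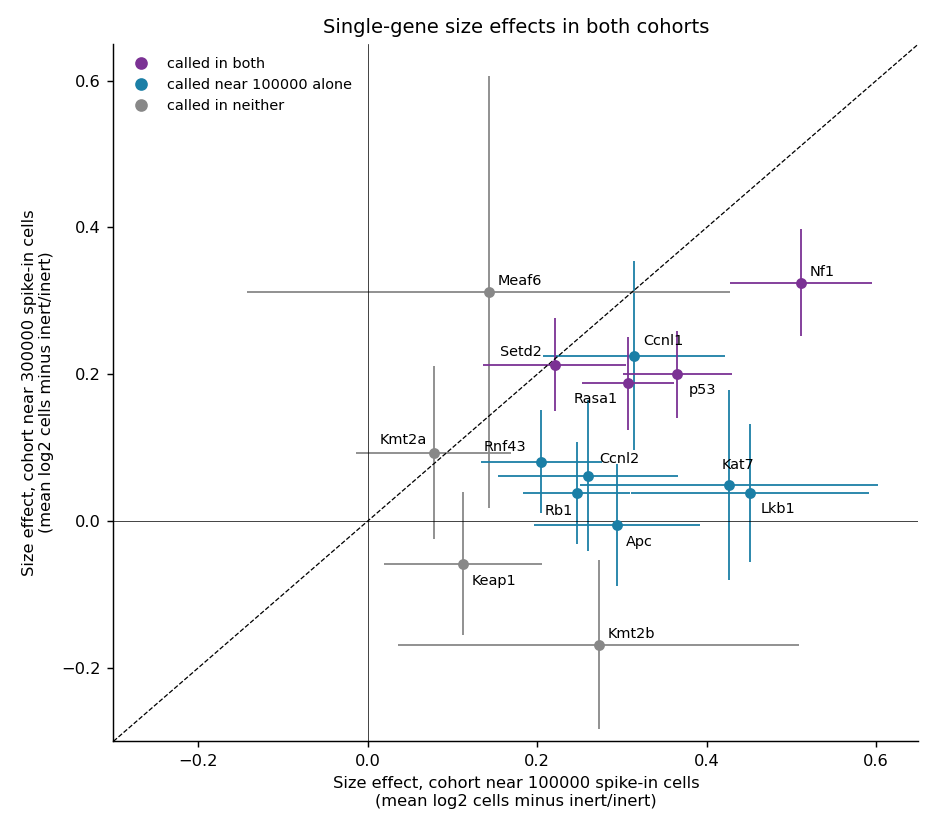
Mean size effect (log2 cells minus inert/inert) of 15 named genes near 100000 (x axis) and near 300000 (y axis), with bars of ± SE over mice; the dashed line marks equal effects. Nf1, p53, Rasa1 and Setd2 were called in both, and Lkb1, Apc, Kat7 and Rb1 lie near 0 on the y axis.

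The genes called near 100000 alone were Lkb1, Kat7, Ccnl1, Apc, Ccnl2, Rb1 and Rnf43. The calls of Ccnl1 (8 of 12 other settings), Kat7 (7 of 10) and Ccnl2 (7 of 12) were lost under most settings tried. Lkb1 gave 0.45 ± 0.70 (SD, n = 25) there and 0.04 ± 0.42 (n = 20) near 300000. Its mice spanned -0.44 to 2.04 with a median of 0.31, and -0.64 to 0.86 with a median of 0.04, so that 6 mice near 100000 lay above every mouse near 300000. Apc gave 0.30 ± 0.49 against -0.0049 ± 0.37, and Rb1 0.25 ± 0.32 against 0.04 ± 0.31. These mice overlapped over most of their range too. The difference between cohorts (near 300000 minus near 100000) was -0.41 for Lkb1 (95% interval -0.74 to -0.08), -0.30 for Apc (-0.55 to -0.05) and -0.21 for Rb1 (-0.39 to -0.02). None of these passed the adjustment over 16 genes in a permutation of mice between cohorts (adjusted permutation p of 0.167 for each).

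Tested in this way, no single-gene size effect differed between the cohorts (0 of 16, 0%, with 3 at an unadjusted permutation p under 0.05). A gene called in 1 cohort and not in the other is therefore not shown to differ. The effects were nonetheless larger near 100000 for 13 of the 16 genes, with a median of 0.28 against 0.09 and a median difference of -0.17. In the control mice, which have no Cas9, the median single-gene value was 0.09 near 100000 and -0.01 near 300000, and the value was lower near 300000 for 14 of 17 genes. These values share the reference of each mouse, and none passed a test between 5 and 4 KT mice (lowest exact permutation p = 0.111). The guide named NE, counted neither as inert nor as targeting, gave 0.09 ± 0.28 and -0.10 ± 0.29 (SD). The part of the inert/inert reference in these shared differences was not tested. With the mean of a mouse's single-gene effects as the reference in its place, 1 gene was called near 100000 and 2 near 300000, Nf1 in both (0.22 and 0.22). Such a call marks an effect apart from the average gene, not from inert/inert. Without mice 24 and 38, 11 genes were called near 100000, all but Kat7 (0.33), and Lkb1 was at 0.39.

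**Figure D2:**
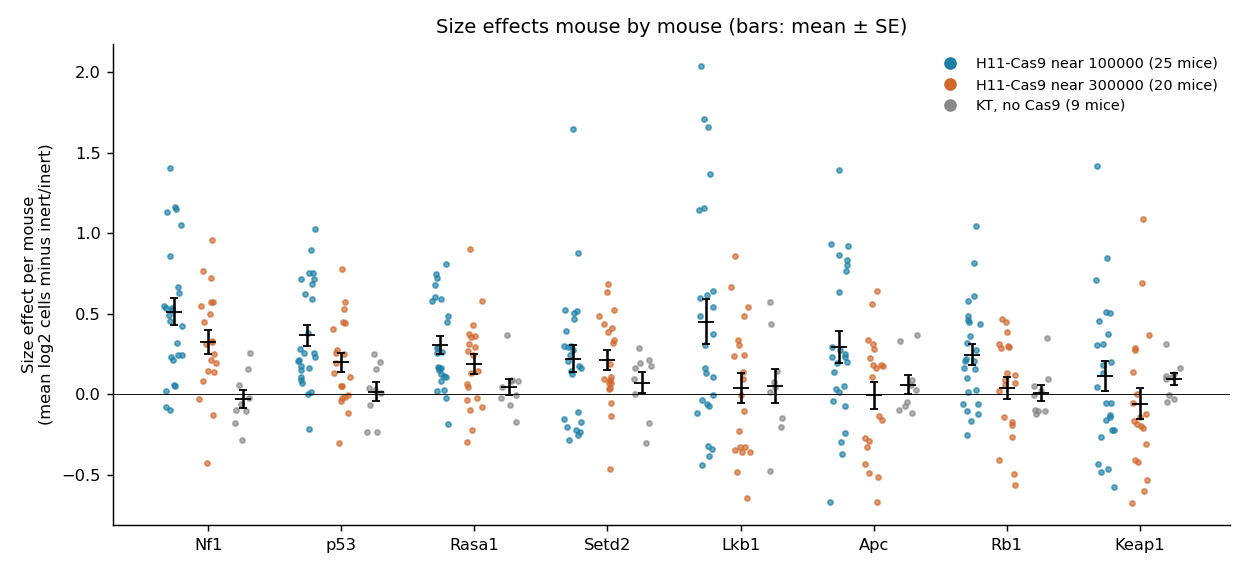
Size effect of 8 genes in each mouse (points) near 100000, near 300000 and in the 9 KT mice without Cas9, with the mean ± SE in black, on the log2 scale relative to inert/inert. Lkb1 points near 100000 reach 2.04, while those near 300000 end at 0.86. The Lkb1 points of KT mice run from -0.47 to 0.57, with means of 0.15 near 100000 and -0.06 near 300000 that the figure pools.

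The remaining genes had no called size effect in either cohort. Keap1 gave 0.11 ± 0.47 and -0.06 ± 0.44 (SD), Kmt2a 0.08 ± 0.44 and 0.09 ± 0.50. Kmt2b was measured in 11 and 18 mice, at 0.27 ± 0.79 and -0.17 ± 0.49. Meaf6, which sits in place 1 of the construct alone, had enough tumours in 5 and 8 mice (0.14 ± 0.64 and 0.31 ± 0.83). Pcna tumours were too rare for a test near 100000, with 3 mice at -0.81 to -0.36, and averaged -0.39 ± 0.67 (SD, n = 10) near 300000, where the effect was below 0 in 8 mice and was not called.

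The Lkb1 value near 100000 came with very large tumours, while its median tumour was no larger than inert/inert. Over all mice, the median Lkb1 tumour had 0.94 times the cells of the median inert/inert tumour near 100000 and 0.87 times near 300000. The 95th percentile was 12 times that of inert/inert tumours near 100000 and 1.78 times near 300000. Near 100000, 68 of 502 Lkb1 tumours (13.5%, 95% Wilson interval 10.8% to 16.8%) reached 1000 cells, and near 300000, 42 of 519 (8.09%, 6.04% to 10.8%). The matching shares of inert/inert tumours were 5.32% and 5.92%. These intervals cover counting error only, since tumours of a mouse share it. Tested over mice, the share of large Lkb1 tumours above inert/inert differed by -5.95 percentage points near 300000 (95% interval -10.5 to -1.35), which missed the adjusted threshold (adjusted permutation p = 0.234). Nf1 had a more even shift, 1.25 and 1.16 times at the median and 3.26 and 1.82 times at the 95th percentile. With the median of each mouse in place of its mean, Nf1, Rasa1 and p53 were called near 100000 (0.30, 0.21 and 0.25) and no gene near 300000 (0 of 17 by the sign-flip test, with 4 at an unadjusted p under 0.05).

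Taken by single guide and by place in the construct, 54 size effects could be set against each other, and none differed after adjustment (7 had an unadjusted permutation p under 0.05). The nearest was the second Rb1 guide, at 0.26 ± 0.35 (SD, n = 25) against -0.05 ± 0.30 (n = 20), with a difference of -0.31 (95% interval -0.50 to -0.12) and an adjusted permutation p of 0.0734. Lkb1 guides in place 2 gave 0.64 ± 1.09 (n = 24) against -0.12 ± 0.47 (n = 18), with an adjusted permutation p of 0.0861. Near 300000 alone, neither p53 guide (adjusted sign-flip p of 0.0555 and 0.0568) and neither Setd2 guide (0.0991 each) was called. The second Rasa1 guide was not called there either (adjusted sign-flip p = 0.236), while both Nf1 guides and the first Rasa1 guide were.

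Tumours of many gene pairs were larger than inert/inert tumours in both cohorts. Near 100000, 34 of 75 pairs with enough tumours were larger (45.3%), and none was smaller. Near 300000, 25 of 87 pairs were larger (28.7%) and 1 was smaller (1.15%). The same 21 pairs were larger in both, which is 61.8% of those called near 100000 and 80.8% of those called near 300000, and no pair was called in opposite directions. Of the 75 pairs tested in both, 65 had the same sign. The pairs share genes, mice and the reference, so they are not independent.

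Rb1 with p53 gave the largest tumours of all pairs called in both. The effect was 0.92 ± 0.57 (SD, n = 25), or 1.89-fold, near 100000 and 0.95 ± 0.46 (SD, n = 20), or 1.93-fold, near 300000. Mice spanned 0.05 to 2.53 with a median of 0.73 near 100000, and 0.20 to 2.13 with a median of 0.92 near 300000. The effect was above 0 in all 45 mice. The difference was 0.03 (95% interval -0.27 to 0.33). In KT mice the same constructs gave 0.14 ± 0.30 (n = 5) and -0.08 ± 0.16 (n = 4).

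Among pairs of named genes called in both, Nf1 with p53 followed, at 0.60 ± 0.36 (SD) and 0.46 ± 0.39, above 0 in 25 of 25 and 19 of 20 mice. The 2 RAS brakes together, Nf1 with Rasa1, gave 0.54 ± 0.37 and 0.36 ± 0.36, above 0 in 25 of 25 and 17 of 20 mice. Among the other pairs called in both, Apc with Nf1 gave 0.39 and 0.46, Rasa1 with Setd2 0.48 and 0.33, Nf1 with Setd2 0.43 and 0.32, and Setd2 with p53 0.27 and 0.29. Beside these 21 of 75 pairs, the unnamed gene had 8 of its 14 pairs called in both, Nf1, Rasa1 and p53 had 6 of 13 each, and Rnf43 and Setd2 had 5 of 12 each.

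**Figure D3:**
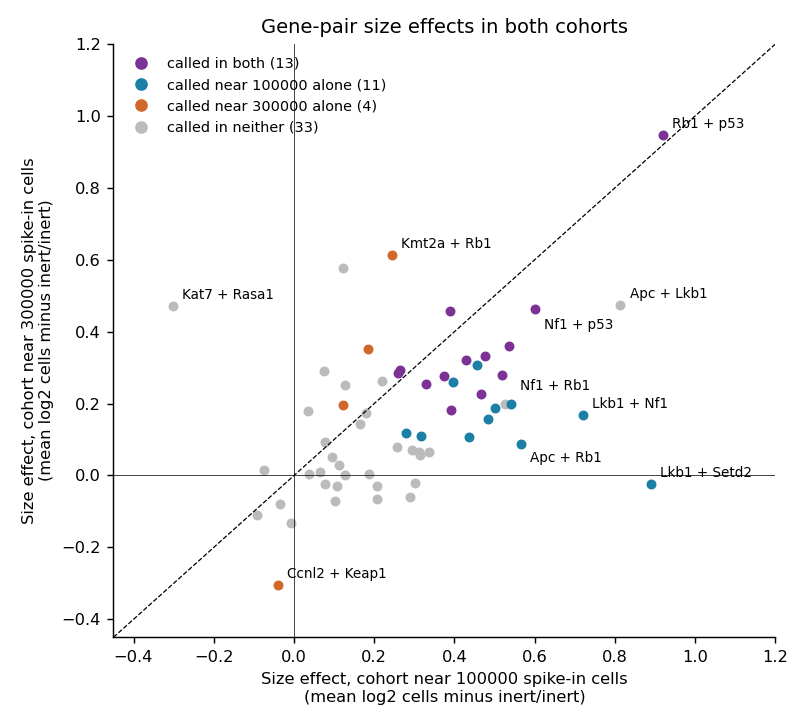
Mean size effect of 61 pairs of named genes (log2 cells minus inert/inert) near 100000 (x axis) and near 300000 (y axis); the dashed line marks equal effects and colours give the calls. Rb1 + p53 lies near the dashed line at 0.92 and 0.95, and Lkb1 + Setd2 lies at 0.89 on the x axis and -0.02 on the y axis.

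A single pair differed between the cohorts in size after adjustment, Lkb1 with Setd2 (1 of 75, 1.33%, with 8 at an unadjusted permutation p under 0.05). Its mean size effect was 0.89 ± 1.11 (SD, n = 24) near 100000 and -0.02 ± 0.42 (n = 20) near 300000. Mice spanned -0.57 to 2.94 with a median of 0.71, and -0.86 to 0.70 with a median of -0.08. So 12 mice near 100000 lay above every mouse near 300000, and the rest overlapped. The difference was -0.91 (95% interval -1.39 to -0.43), with an adjusted permutation p of 0.0405. Over all mice, the median tumour of the pair had 1.07 times the cells of the median inert/inert tumour near 100000 and 0.88 times near 300000. The 95th percentile was 68.8 and 0.90 times that of inert/inert tumours, so the value near 100000 came with very large tumours. Over all tumours, 54 of 298 (18.1%) reached 1000 cells near 100000 and 18 of 340 (5.29%) near 300000. Each of the 8 constructs of this pair had 6 to 9 such tumours near 100000 and 0 to 4 near 300000. The constructs share their mice, mouse 24 among them, so these counts are not independent. Near 100000, only 0 to 3 mice had at least 5 tumours of a construct. In KT mice the pair stood at 0.20 ± 0.20 (n = 5) and -0.08 ± 0.11 (n = 4), a difference of -0.28. The call was lost without mice 24 and 38 (difference -0.81, adjusted permutation p = 0.151). It was also lost within the mice named LA (-0.87, adjusted permutation p = 0.0918). Over 8 tested alternatives its adjusted p ran from 0.0403 to 0.684, and 1 of them passed.

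All 10 pairs with Lkb1 that were tested in both cohorts had larger effects near 100000, by 0.21 to 0.91, where 59 of all 75 pairs did. Lkb1 with Nf1 gave 0.72 ± 0.92 (SD, n = 25) and 0.17 ± 0.57 (n = 20), a difference of -0.55 (95% interval -0.99 to -0.12, adjusted permutation p = 0.331). Lkb1 with Rasa1 gave 0.48 and 0.16, Lkb1 with p53 0.43 and 0.11, and Keap1 with Lkb1 0.50 and 0.19. Of the 13 pairs called near 100000 alone, 6 held Lkb1, and 12 of the 13 kept their sign near 300000. Apc with Lkb1 was called in neither (0.81 ± 1.54, n = 16, and 0.47 ± 1.04, n = 18), and a single mouse reached 5.11.

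The largest differences relative to their errors after Lkb1 with Setd2 were those of Rasa1 with p53 (0.52 and 0.28), Nf1 with Rb1 (0.54 and 0.20) and Lkb1 with Nf1. Rnf43 with p53 (0.47 and 0.22), Rb1 with Rnf43 (0.21 and -0.06) and Apc with Rb1 (0.57 and 0.09) came next. All were smaller near 300000, with adjusted permutation p of 0.235 to 0.373. Kat7 with Rasa1 went the other way (-0.30 in 6 mice and 0.47 in 9 mice, adjusted permutation p = 0.373). Of the 5 pairs called near 300000 alone, Kmt2a with Rb1 had the largest effect (0.61 ± 0.84, n = 12, against 0.24 ± 0.70, n = 13). Ccnl2 with Keap1 was the 1 pair with smaller tumours (-0.31 ± 0.34, n = 11, against -0.04 ± 0.53, n = 11).

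The Rb1 and p53 pair was spread unevenly over its 8 constructs, and in the same way in both cohorts. With p53 in place 1 and the first Rb1 guide in place 2, the effect was 1.80 ± 0.28 (SE, n = 19) near 100000 and 1.93 ± 0.24 (SE, n = 16) near 300000 for the first p53 guide. For the second p53 guide it was 1.61 ± 0.21 (SE, n = 17) and 1.66 ± 0.22 (SE, n = 20). The other 6 constructs gave 0.12 to 0.81 and 0.13 to 0.57. The first Rb1 guide in place 1 gave 0.62 and 0.81 near 100000 and 0.47 and 0.54 near 300000, from 2 to 6 mice. Without Cas9, the same constructs stood at 0.50 and 0.42 in the KT mice near 100000 and at -0.31 and 0.02 in those near 300000. In KT mice the 2 large constructs were at -0.02 and 0.05 near 100000 and at -0.19 and -0.20 near 300000. Without both of them, the pair was at 0.48 ± 0.45 (SD, n = 25) and 0.41 ± 0.40 (n = 20). These constructs were singled out after their values were seen.

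**Figure D4:**
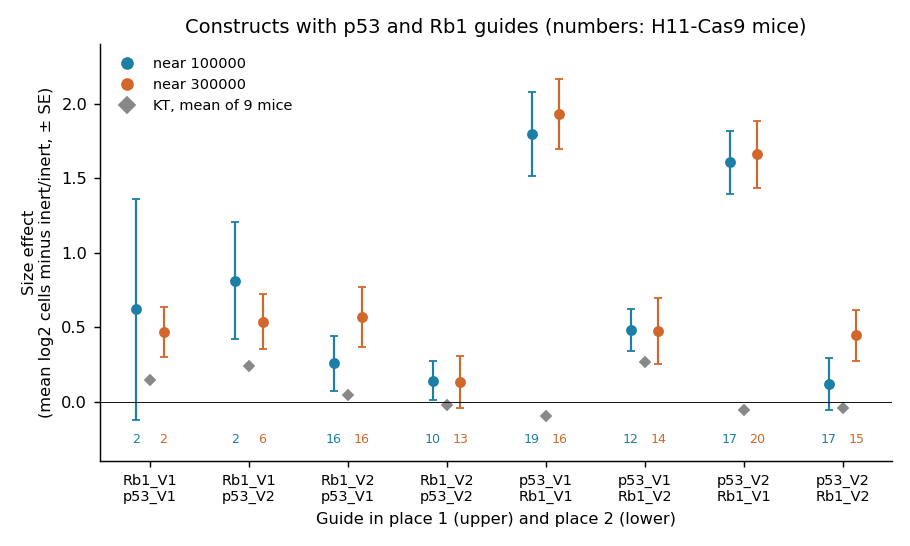
Size effect (mean log2 cells minus inert/inert, ± SE over mice) of the 8 constructs with p53 and Rb1 guides near 100000 and near 300000, with the number of H11-Cas9 mice below each point and the mean of the 9 KT mice as diamonds. In both cohorts the 2 constructs with p53 in place 1 and Rb1_V1 in place 2 lie between 1.61 and 1.93, above the other 6.

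The interaction of a pair was its effect minus the sum of its single-gene effects in the same mouse, so that 0 means that the effects multiply on the scale of cells. Few interactions were called in both cohorts. Near 100000, 18 of 73 were below 0 (24.7%) and none was above (0%), and near 300000, 3 of 84 were below (3.57%) and 1 was above (1.19%). The 18 near 100000 became 10 without mice 24 and 38, 1 with tumours of at least 100 or 200 cells or at least 10 reads, and 0 with at least 500 cells. Floors on cells or reads also remove inert/inert tumours and can leave fewer mice to test. Both interactions called in each cohort held the unnamed gene. The median was -0.30 and -0.12. By its arithmetic an interaction holds the inert/inert mean with a plus sign and a single-gene effect holds it with a minus sign, so a low mean moves all interactions of a mouse down and all its single-gene effects up.

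None of the 73 interactions differed between the cohorts after adjustment (0%, with 8 at an unadjusted permutation p under 0.05). Rb1 with p53 was the 1 interaction called above 0, at 0.71 ± 0.44 (SD, n = 20, above 0 in 18 mice) near 300000. Near 100000 it was at 0.31 ± 0.63 (n = 25, above 0 in 18 mice), which was not called (adjusted sign-flip permutation p = 0.0637). It passed near 100000 under 5 of 7 other settings, at 0.36 to 0.54, among them tumours of at least 100 cells and leaving out mice 24 and 38. The difference was 0.40 (95% interval 0.09 to 0.72, adjusted permutation p = 0.301). Without the 2 large constructs it was at 0.17 ± 0.42 near 300000 and -0.13 ± 0.49 near 100000, and passed in neither (sign-flip permutation p of 0.0907 and 0.209). These constructs were singled out for their high values, so leaving them out lowers the interaction by construction. The difference without them was 0.30 (95% interval 0.03 to 0.56, unadjusted permutation p = 0.0358). Rasa1 with Rb1 (-0.29 and 0.06), Apc with p53 (-0.51 and -0.05) and Apc with Nf1 (-0.42 and 0.14) were called below 0 near 100000, as was Keap1 with Rb1 (-0.37 and 0.04). Each had an adjusted permutation p of 0.229 to 0.397 for its difference.

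Tumour number relative to inert/inert had the same sign in both cohorts for all 17 genes, and 5 genes had fewer tumours in each. Number was the log2 ratio of tumours with a gene's guide beside an inert guide to inert/inert tumours, each plus 0.5, in H11-Cas9 mice less the same in the KT mice of the same spike-in total, which shows how common each guide was in the pool. Fewer tumours were called for 5 of 17 genes near 100000 (29.4%) and for the same 5 near 300000 (29.4%). Across genes, which share mice and reference, Spearman's correlation of the effects between cohorts was 0.96 over 17 genes for number and 0.24 over 16 genes for size (Pearson's 0.99, with Pcna far from the rest, and 0.31).

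Pcna fell furthest, to 0.0434 of its KT level near 100000 and to 0.0764 near 300000 (log2 -4.53 ± 0.19 and -3.71 ± 0.18, SE). Lkb1 fell to 0.413 and 0.476 (log2 -1.28 ± 0.12 and -1.07 ± 0.13), although its tumours near 100000 were larger. Kmt2b fell to 0.418 and 0.567 (log2 -1.26 ± 0.15 and -0.82 ± 0.18), and Keap1 to 0.493 and 0.529 (log2 -1.02 ± 0.11 and -0.92 ± 0.10). Apc fell to 0.629 and 0.628 (log2 -0.67 ± 0.10 in both). By guide, the second Apc guide was called in both cohorts (log2 -1.04 and -0.98) and the first in neither (-0.18 and -0.26). The second Keap1 guide was called in both (-1.88 and -1.78) and the first in neither (-0.47 and -0.36). The first Lkb1 guide was called in both (-1.93 and -1.48), and the second near 300000 alone (-0.76 and -0.69). Pcna and Kmt2b had a single guide. All 5 genes passed exact permutation tests against 5 or 4 KT mice. The Kmt2b call near 300000 was lost under 7 of 13 other settings, 2 of which left out KT mouse 1 (-0.70, adjusted exact permutation p = 0.0809) or KT mouse 4 (-0.79, adjusted exact permutation p = 0.0608). The Apc calls were lost relative to all tumours (-0.19 and -0.35), a reference that moved all genes of a cohort up by the same amount.

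Rises in number were called near 300000 alone, for Nf1 (log2 0.47 ± 0.10, SE) and the unnamed gene (2 of 17, 11.8%), and for no gene near 100000 (0%), where Nf1 was at 0.36 ± 0.11. The Nf1 call near 300000 was lost under 4 of 13 other settings, among them leaving out KT mouse 3 (0.43, adjusted exact permutation p = 0.0624), and Nf1 passed near 100000 relative to all tumours (0.84). p53 stood at 0.17 and 0.29, Rasa1 at 0.19 and 0.22, and Setd2 at -0.35 and -0.27. None of these was called. Relative to all tumours, Setd2, Rnf43, Kmt2a, Ccnl2, Rb1 and Ccnl1 turned from below to above 0 in both cohorts. This, like the Nf1 pass, came with a shift of all genes of a cohort by the same amount. The change of reference makes that shift by its arithmetic. With a permutation test of the difference over its standard error, 10 genes were called near 100000 and 8 in both cohorts.

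**Figure D5:**
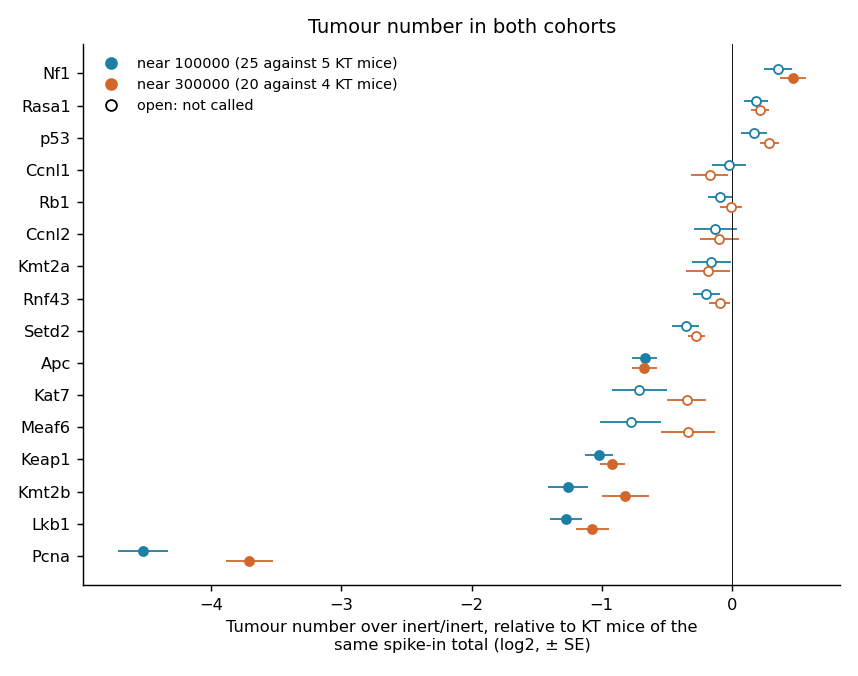
Tumour number of 16 named genes relative to KT mice (log2, ± SE) near 100000 and near 300000; filled points were called by the exact permutation test. In both cohorts Pcna is lowest (-4.53 and -3.71), followed by Lkb1, and Nf1 is highest (0.36 and 0.47).

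Set directly against each other, the cohorts differed in number for Pcna alone (1 of 17, 5.88%, with 2 at an unadjusted permutation p under 0.05). Pcna tumours numbered 73 in 25 mice near 100000 (0 to 9 per mouse, median 2) and 117 in 20 mice near 300000 (2 to 18, median 4.5), so the mice overlapped. The log2 ratio to inert/inert was 0.80 higher near 300000 (95% interval 0.30 to 1.30, adjusted permutation p = 0.0473), and in KT mice it differed by -0.01. With so few tumours the value depends on what is added to each number. It was 0.67 with 1 added (adjusted permutation p = 0.0886) and was not called from summed tumours (0.83, adjusted permutation p = 0.109) or within the mice named LA (0.70, adjusted permutation p = 0.235). Among tumours of at least 500 cells it was -0.19. Kmt2b had the other unadjusted difference, at 0.42 (95% interval 0.07 to 0.77, adjusted permutation p = 0.181).

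For pairs, 47 of 136 had fewer tumours near 100000 (34.6%) and 41 near 300000 (30.1%), 38 of them in both. These included all 16 pairs with Pcna, 11 with Lkb1 and 10 with Keap1. By the average of both cohorts, Lkb1 with Pcna was lowest (log2 -4.66 ± 0.21 and -4.29 ± 0.28, SE), although Pcna with Rb1 (-4.75) and Keap1 with Pcna (-4.68) were lower near 100000. Among pairs without Pcna that were called in both, the lowest by the same average were Keap1 with Lkb1 (-1.92 ± 0.13 and -1.73 ± 0.13), Keap1 with Kmt2b (-2.05 and -1.42) and Ccnl1 with Ccnl2 (-1.76 ± 0.27 and -1.63 ± 0.26). The cyclin pair fell although neither gene was called alone (Ccnl1 -0.02 and -0.17, Ccnl2 -0.13 and -0.10), but its departure from their sum was not called (-1.61 and -1.37, adjusted exact permutation p of 0.0968 and 0.813). Pairs with more tumours were 1 near 100000 (0.735%), Ccnl1 with Meaf6, and 9 near 300000 (6.62%), with none in both. Nf1 with p53 (0.48 and 0.72), Nf1 with Rasa1 (0.54 and 0.62) and Rb1 with p53 (0.27 and 0.57) were called near 300000 only.

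Kmt2b with p53 was the 1 pair whose number differed between the cohorts (1 of 136, 0.735%, with 14 at an unadjusted permutation p under 0.05). It had 61 tumours in 25 mice (0 to 10 per mouse, median 2) and 105 in 20 mice (2 to 11, median 4). Its log2 ratio was 0.99 higher near 300000 (95% interval 0.48 to 1.5, adjusted permutation p = 0.0326), against -0.01 in KT mice. Over 12 alternatives the value ran from -0.04 to 1.15 and 4 of them passed. Without mice 24 and 38, this pair differed by 1.06 (adjusted permutation p = 0.00408) and 10 pairs were called in place of 1. Among the pairs reported here, Apc with Lkb1 (0.61), Rb1 with p53 (0.34), Rnf43 with Setd2 (0.28), Keap1 with Rnf43 (0.34), Keap1 with Setd2 (0.32) and Keap1 with Pcna (0.74) came next, all higher near 300000, with adjusted permutation p of 0.186 to 0.257. Of these, Rb1 with p53 passed under 6 of 12 other settings (0.35 to 0.74) and Apc with Lkb1 under 3 of 12 (0.71 to 0.75), both of them without mice 24 and 38.

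Departures of pair numbers from the sum of single-gene log2 values were called for 7 of 136 pairs near 100000, all above 0 (5.15%), and for 1 near 300000 (0.735%). Meaf6 with Pcna was called in both (3.47 and 2.75). Of the 7, 6 held Pcna or Meaf6 (4 Pcna and 3 Meaf6), and the other was Kat7 with Kmt2b (1.78 and 0.98). Pcna and Meaf6 are each in 16 of the 136 pairs. They had the fewest single-gene tumours near 100000 (73 and 70), so departures that hold them lean on the 0.5 added to each number. The pair of Meaf6 and Pcna had 2 tumours in all near 100000, with 23 of 25 mice at 0, and 6 near 300000, with 14 of 20 mice at 0, so its values turn on the 0.5 added to each number. No such value differed between the cohorts (0 of 136, 0%, with 8 at an unadjusted permutation p under 0.05).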

How the data were processed

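Each mouse gave 1 library, made by PCR of barcode and guide pair from 32 µg of its lung DNA, per the labels' protocols. Of the deposited values, reads per tumour are raw counts, and cells per tumour are a signal that the authors scaled from reads by spike-in barcodes. How barcodes were called was not given in the sources used here. Within a mouse, the smallest tumour listed had 50.1 to 105 cells, so smaller ones were not measured. Depth is given in the report; 1 read stood for 2.28 to 35.0 cells.

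Cohorts were split at a spike-in total of 200000 cells. Left out were 171 spike-in entries, 1 more in which a spike-in name stood for a guide, and 2008 tumours with the same guide in both places. H11-LSL-Cas9 mice are not analysed here. Size effects were tested by sign flips over mice (exact up to 17 mice, else 100000 draws), with at least 5 mice. Cohorts were compared by permuting mice on the difference over its standard error (100000 draws, or all assignments up to 2000000), and numbers against KT mice by exact permutation of mice. Benjamini-Hochberg adjustment ran over all genes or all pairs of a comparison, with calls under 0.05. The smallest p that random draws can give is 1e-05. Intervals of differences are ± 1.96 SE. Values were computed with Python 3.11.15, numpy 2.4.6, pandas 2.3.3 and scipy 1.17.1 by scripts tested on simulated data.

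All genes beside an inert guide were named. Of pairs and of interactions, the 8 with the largest mean among those called in both cohorts and the 8 with the largest difference relative to its error were named, likewise for number, and a few further pairs of the same genes were added after values were seen. Members and lists were chosen with earlier results of these data known. Of the 17 genes, 1 is not reported here by name, nor is 1 allele of the background, so fewer pairs are named than the rule takes, and counts include it. Nothing says whether mice shared a litter, so p-values measure the spread between these mice.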

Additional observations from a re-analysis of the deposited data

Results flagged for a closer look

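Of 74 groups of 4 or 5 KT mice checked for a mouse far from the others, 5 held one, and chance alone marks about 1 in 20. Near 100000, KT mouse 8 had the most tumours (log2 14.88) and KT mouse 7 had the lowest Kmt2a size value (-0.56). Near 300000, KT mouse 2 had the most tumour cells (log2 25.19), KT mouse 1 the lowest Ccnl1 size value (-0.41) and KT mouse 4 the highest Rb1 size value (0.054). These KT mice have no Cas9.

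The cohorts differed in 3 tested effects, each near 300000 minus near 100000. Lkb1 with Setd2 differed by -0.91 in size, Pcna by 0.80 in number and Kmt2b with p53 by 0.99 in number. Each call was lost under most of the other settings tried: 7 of 8 tested for Lkb1 with Setd2, 10 of 12 for Pcna and 8 of 12 for Kmt2b with p53.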

How the results depend on the processing

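No paired analysis was possible because the labels give no replicate numbers that link mice. The settings without mice 24 and 38, with the single-gene reference, with summed tumours and with pairs of at least 3 tumours per mouse were chosen after seeing the data. Tumours of at least 500 cells left 0 calls of single-gene size near 100000, near 300000 or in both, 0 of pair size in the same 3 counts, 0 interactions in either cohort and 0 pair size differences. This floor also removes inert/inert tumours, whose medians were 161 and 169 cells, while each mouse still needed 5 of them. These 0 calls cannot be told apart from a loss of mice that could be tested. Interactions called near 100000 numbered 1 with at least 100 cells, with at least 200 cells, with at least 10 reads, or with floors of 100 cells near 100000 and 300 near 300000. They numbered 10 without mice 24 and 38. Interactions near 300000 numbered 2 with at least 200 cells and 8 with the 2 floors. Single genes called for size near 100000 numbered 7 with at least 10 reads, and 9 were called near 300000 with the 2 floors, where Keap1 was at 0.40. With medians, 3 were called near 100000 and 0 near 300000 or in both, and Setd2 near 100000 was at -0.011. Relative to the mean of the single genes, 1, 2 and 1 were called near 100000, near 300000 and in both, and 1 differed between cohorts. Ccnl2 was then at -0.042, Rb1 at -0.041, Rnf43 at -0.083 and Setd2 at -0.067 near 100000, and pair calls numbered 14, 16 and 9. This reference takes the same amount from all genes of a mouse, so genes of about average effect lie near 0 by construction. The pair size difference was called for 0 pairs with at least 200 cells, the 2 floors, at least 10 reads, at least 10 tumours, LA mice, the plain difference of means, the single-gene reference, and without mice 24 and 38.

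Single-gene number differences were 0 with a pseudocount of 1, relative to all tumours, with at least 100, 200 or 500 cells, the 2 floors, at least 10 reads, LA mice, the plain difference or summed tumours. With at least 500 cells, Pcna differed by -0.19 and Kmt2b with p53 by -0.044. Both lean on few large tumours. Those of 1000 cells were 1 and 2 for Pcna and 5 and 9 for Kmt2b with p53, near 100000 and near 300000. Pair number differences were 0 with a pseudocount of 1, relative to all tumours, with at least 500 cells, LA mice or the plain difference. They were 2 with at least 100 cells, 3 with at least 200 cells, at least 10 reads or summed tumours, 17 with the 2 floors and 10 without mice 24 and 38. Single genes called for number near 100000 were 11 relative to all tumours, 3 with at least 500 cells and 10 when the permuted difference was divided by its standard error, and 8, 2 and 8 in both cohorts. Relative to all tumours, Ccnl1 was at 0.46, Rb1 at 0.39 and Rnf43 at 0.28 near 100000, and Rnf43 at 0.23 near 300000. The reference to all tumours shifts all genes of a cohort by the same amount, so these values follow from its arithmetic. The difference in log2 tumours was 0.44, 0.42 and 0.42 with at least 200 cells, 500 cells or 10 reads and 0.33 without mice 24 and 38, none past the threshold. It was -0.87 with the 2 floors, which remove more small tumours near 300000 by construction, and log2 inert/inert tumours then differed by -1.12 and the share of tumours of 1000 cells by 17.1 percentage points. For the other changes the cause was not tested.

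The single-gene size difference stayed at 0 calls under the settings other than the single-gene reference. Inert/inert tumours, 583 and 524 in all, limit every value, and Pcna and Meaf6 numbers rest on few tumours.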
